A study of Mus musculus with 22 samples.

Results

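GATA1+LSK cells were compared with lymphoid-primed multipotent progenitors (LMPPs) on 8 bead arrays, 4 of each population, out of 22 arrays in the series. The arrays were chosen by their titles, and the account below covers all 11118 genes with a named probe detected (detection p under 0.05) on at least 4 of the 22 arrays. Each gene is represented by its brightest probe, and every level is a log2 normalised signal. Both populations were sorted from the bone marrow of C57BL/6 mice aged 8 weeks that carried a GATA1-GFP transgene, so the reporter was present in the LMPP mice as well. The other 14 arrays held GATA1-LSK cells (4), common myeloid progenitors (CMPs, 4) and long-term haematopoietic stem cells (LT-HSCs, 6) of the same strain, transgene and age. GATA1+ and GATA1- refer to the fluorescence of the reporter, which stands in for the gene and is not a measurement of the endogenous transcript. The sources used here do not say how many mice each array pooled or whether arrays came from separate mice, so the errors below measure the spread between arrays, which may be technical.

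LSK cells (lineage-negative, Sca-1+ and Kit+) are the bone marrow fraction that holds stem cells and the earliest multipotent progenitors. GATA1 is the transcription factor of the erythroid, megakaryocytic and mast cell lineages, and its reporter marks LSK cells biased to those fates. LMPPs have largely lost megakaryocytic and erythroid potential and give rise to lymphoid and myelomonocytic cells. The comparison therefore asks how progenitors at opposite sides of an early branch differ in their receptors, adhesion molecules, metabolism and regulators.

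The labels were checked first. The level of Gata1 was 7.91, 7.59, 6.83 and 6.44 on GATA1+LSK arrays 1 to 4 and 4.67, 4.93, 4.51 and 4.96 on LMPP arrays 1 to 4. The groups did not overlap, and the difference (GATA1+LSK minus LMPP) was 2.43 ± 0.28 (SE, n = 4 and 4; limma, Benjamini-Hochberg adjusted p = 2.24e-06). Itga2b, the platelet integrin CD41, was higher by 5.69 ± 0.35, Gata2 by 2.80 ± 0.33 and Gfi1b by 2.36 ± 0.35. Dntt, the terminal transferase of lymphoid progenitors, was detected on no GATA1+LSK array and was at least 15.9-fold higher in LMPPs (adjusted p = 1.97e-09). This bound sets the mean of the brighter group against, on each dimmer array, the higher of the lowest detected signal and the probe's own signal, and it is used below wherever 1 population had no array with the gene above background. Kit, the receptor used in the LSK gate, was 12.86, 12.13, 11.25 and 10.47 on the GATA1+LSK arrays and 12.12, 12.46, 11.03 and 10.69 on the LMPP arrays (adjusted p = 0.935). Flt3, the receptor by which LMPPs are usually defined, was near background in both populations by its brightest probe (4.70 ± 0.19 and 5.03 ± 0.27, mean ± SD). A second Flt3 probe, which was not tested, was detected on all 4 LMPP arrays and on none of the other 18, at a mean of 5.13 in LMPPs and 4.40 in GATA1+LSK cells. Of the LMPP markers, Cd34 was higher in LMPPs as well (-2.11 ± 0.30), and so was the interleukin-7 receptor gene Il7r (-1.73 ± 0.47, adjusted p = 0.0213). The call of Il7r was lost without LMPP array 2 or 4 or GATA1+LSK array 1 or 4 (adjusted p up to 0.0694). It was also lost with slide as a block (adjusted p = 0.105) and without background correction. Ly6a (Sca-1) was not analysed here.

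The arrays differed in quality. Mean raw signal was 322, 311, 181 and 167 on GATA1+LSK arrays 1 to 4 and 304, 290, 217 and 242 on LMPP arrays 1 to 4. GATA1+LSK arrays 3 and 4 stood apart from arrays 1 and 2, with correlations among the 4 as low as 0.91, while the 4 LMPP arrays correlated at 0.967 to 0.99. Arrays sat on 4 slides, of which slide 4 alone held both populations, as 1 array each. The α-globin gene Hba-a1 read 11.13, 5.14, 6.33 and 11.94 on the GATA1+LSK arrays and 4.82 to 5.45 on the LMPP arrays, and its part in the results was not tested beyond leaving out arrays 1 and 4. In bulk arrays, fewer cells of a type and less RNA per cell cannot be told apart.

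Of the 11118 genes, 953 passed the test (8.57%), 413 of them higher in GATA1+LSK cells (3.71%) and 540 lower (4.86%). The median difference over all genes was −0.04. Among the genes that passed, 853 also had arrays that did not overlap between the populations (7.67% of all genes), and 758 differed by at least 2-fold (6.82%). The higher set held 83 genes detected on no LMPP array and the lower set held 52 genes detected on no GATA1+LSK array. With slide as a block 848 genes passed, 626 of them shared with the 953, and on slide 4 alone 940 of the 953 had the same direction. Without GATA1+LSK arrays 1 and 4, the arrays with raised Hba-a1, 340 genes were lower and 296 higher. Il7r then lost its call. So did, among the genes described below, Jak2, Jak3, Bcl9l, P2ry13, Ly9, Slc2a6, Ppargc1b, Slc7a8, Fas and Bach1. The calls of Tnfaip3, Ly86, Nfkbie, Ly96, Bcl3, C1qb and C1qc, also described below, were lost too.

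**Figure D1:**
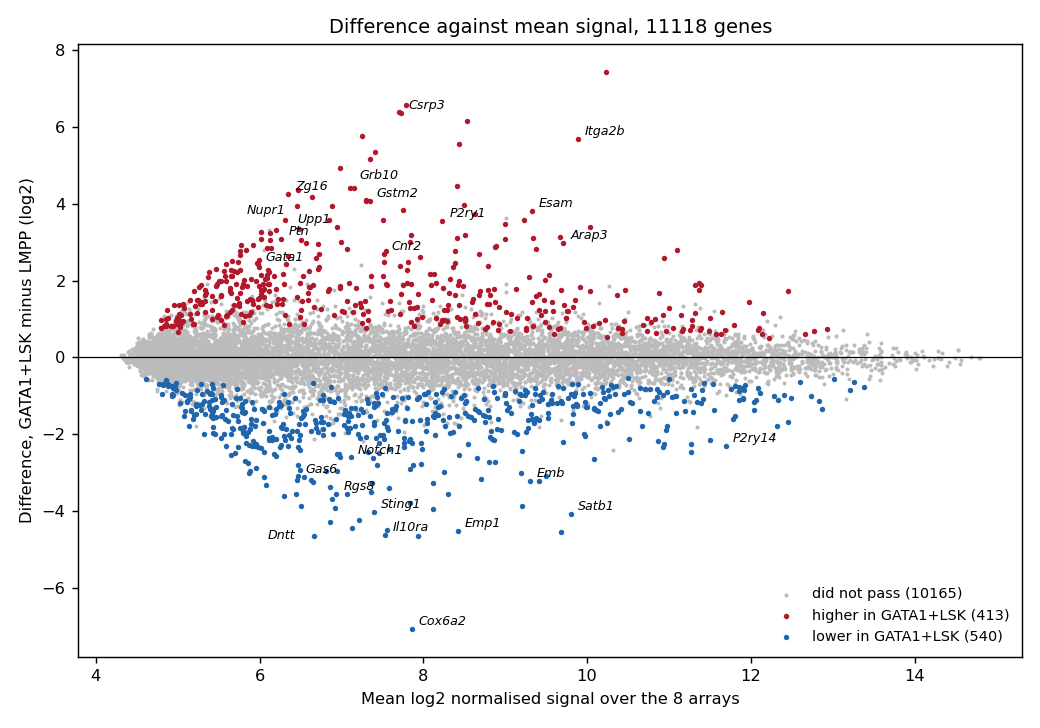
Each point is 1 of 11118 genes; the x axis is the mean log2 normalised signal over the 8 arrays and the y axis is the GATA1+LSK minus LMPP difference in log2 units. Red points (413) were higher and blue points (540) lower in GATA1+LSK cells at an adjusted p under 0.05, and the named genes include Csrp3 near the top and Cox6a2 at the bottom.

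The genes were then read by function, in 28 lists of signalling, adhesion, metabolic and regulatory genes that leave the canonical lineage markers aside. Signalling lists held 424 tested genes, of which 28 were higher (6.6%) and 61 lower (14.4%), with a median difference of −0.19. Adhesion lists held 265, of which 26 were higher (9.81%) and 48 lower (18.1%), with a median of −0.17. Metabolic lists held 412 tested genes, with 23 higher (5.58%) and 26 lower (6.31%) and a median of 0.01. Regulator lists held 409, with 14 higher (3.42%) and 28 lower (6.85%) and a median of −0.06. Beside the shares of all genes, 3.71% and 4.86%, the shares of signalling and adhesion genes that were lower were the ones furthest from the background. Those of metabolic and regulator genes were nearer to it. The lists were chosen with earlier results of these data known, so these shares describe the listed genes and carry no test. With median scaling, under which 447 genes passed, the lists' counts shrank too: lower cytokine receptors from 10 to 6, lower RAS-MAPK genes from 11 to 4 and lower surface adhesion molecules from 18 to 8. Where a list had 2 members called in 1 direction, the count fell to 1 on leaving out at least 1 array, apart from the lower Notch, G protein and respiratory chain genes and the higher nucleotide genes.

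**Figure D2:**
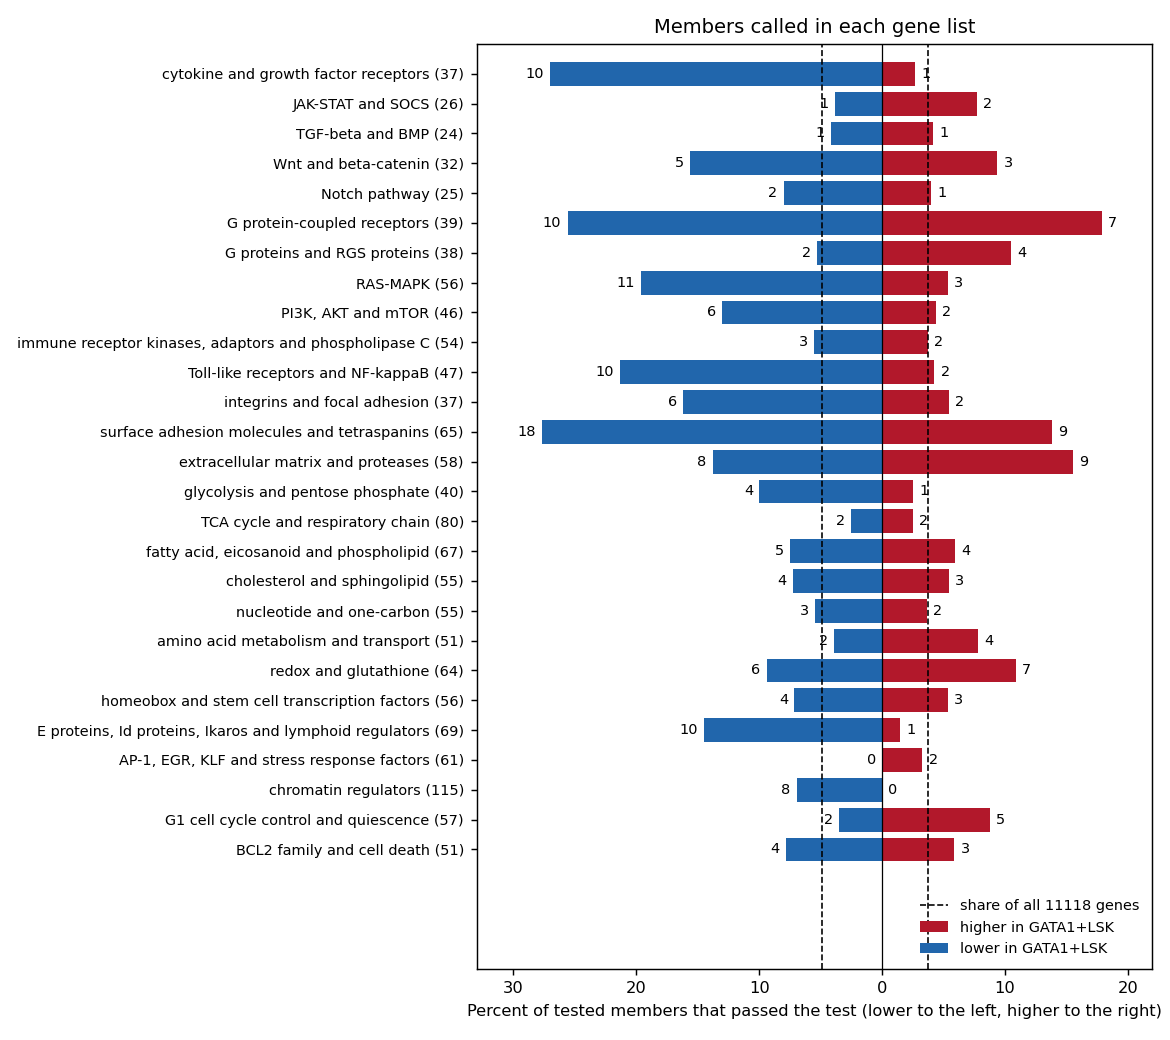
Bars give, for each of 27 gene lists, the percent of tested members (number in brackets) that passed the test as lower in GATA1+LSK cells (blue, to the left) or higher (red, to the right), with the number of genes at the bar's end. Dashed lines mark the shares of all 11118 genes, 4.86% lower and 3.71% higher; receptors, surface adhesion molecules and Toll-like receptor genes extend furthest to the left.

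Of 37 cytokine and growth factor receptors tested, 10 were lower in GATA1+LSK cells, 1 was higher and 26 did not pass, with a median difference of −0.61. The 1 that was higher was Tek, the TIE2 receptor for angiopoietins on stem and endothelial cells. Tek read 8.10, 7.64, 8.06 and 8.47 on the GATA1+LSK arrays and 5.25, 5.26, 5.59 and 5.47 on the LMPP arrays, a difference of 2.68 ± 0.29 (adjusted p = 9.71e-07). All 4 GATA1+LSK arrays were above every LMPP array, and the GATA1+LSK mean was the highest of the 5 populations, followed by LT-HSCs at 7.43 ± 0.58 (SD, n = 6), whose arrays overlapped those of GATA1+LSK cells. Il10ra, the ligand-binding chain of the interleukin-10 receptor, read 5.72, 5.78, 4.37 and 5.04 on the GATA1+LSK arrays, with 2 of them above background, and 10.09, 9.82, 9.97 and 9.48 on the LMPP arrays. It fell by 4.61 ± 0.26 (adjusted p = 3.19e-11) and was lower in GATA1+LSK cells than in any other population, GATA1-LSK cells being next at 6.88 ± 0.20. Il6ra, the interleukin-6 receptor, was lower by 2.11 on the log2 scale (-2.11 ± 0.45, adjusted p = 0.00314), with GATA1+LSK arrays spread from 5.73 to 7.99 and LMPP arrays from 8.31 to 9.15. A second Il6ra probe, detected on all 22 arrays, differed by −0.25. Igf2r, the mannose-6-phosphate receptor that clears insulin-like growth factor 2, differed by -1.91 ± 0.24 (adjusted p = 8.23e-06).

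In the JAK-STAT and SOCS list of 26 genes, the kinases and feedback genes behind these receptors, Jak1 (1.92 ± 0.44) and Jak2 (1.22 ± 0.35) were higher and Jak3 (-1.67 ± 0.50), which pairs with the lymphoid γ chain receptors, was lower. These calls were fragile. The adjusted p of Jak1 was 0.303 with median scaling and 0.259 with slide as a block, and 2 other probes of Jak1 differed by 0.77 and, near background, by −0.2. The call of Jak2 was lost without LMPP array 1, 3 or 4 or GATA1+LSK array 1, 2 or 3 (adjusted p up to 0.0984). Other probes of Jak2 differed by 1.46 and, near background, by 0.24 and 0.12. The call of Jak3 was lost without LMPP array 1, 2 or 3 or GATA1+LSK array 3 or 4 (adjusted p up to 0.15), and a second probe of Jak3 differed by -1. In the TGF-β and BMP list of 24, Tgfbr3 (betaglycan, a co-receptor for TGF-β and inhibins) was higher and Tgif1, a repressor of SMAD targets, was lower (−0.96), a call lost without LMPP array 1 or 4 or GATA1+LSK array 1, 2 or 3 (adjusted p up to 0.0913). Tgfbr3 read 7.45, 8.19, 9.06 and 7.93 against 4.99, 4.87, 4.52 and 4.88, with no overlap and a difference of 3.34 ± 0.38 (adjusted p = 1.57e-06). The brightest member that did not pass was Smad3, a signal-transducing SMAD, at 11.19 ± 0.70 and 10.93 ± 0.24.

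Of 25 Notch pathway genes, 1 was higher (4%) and 2 lower (8%), and 22 did not pass. Notch1, the receptor required for T lineage commitment, read 5.56, 5.67, 6.20 and 5.81 in GATA1+LSK cells and 8.21, 7.92, 8.23 and 9.29 in LMPPs. LMPP arrays were all higher, and the difference was -2.60 ± 0.29 (adjusted p = 1.3e-06), with GATA1-LSK cells (5.73 ± 0.35) level with GATA1+LSK cells. Dtx4, a deltex ubiquitin ligase of the pathway, differed by -2.29 ± 0.22 (adjusted p = 2.5e-07). Nrarp, a Notch target and feedback inhibitor, went the other way, at 1.89 ± 0.29 (adjusted p = 9.25e-05; 0.149 with median scaling). Of 32 Wnt and β-catenin genes, 3 were higher and 5 lower, and with slide as a block 1 was higher and 1 lower. Axin2, a feedback inhibitor of β-catenin, was above background on all 4 GATA1+LSK arrays and no LMPP array, a rise of at least 2.01-fold (adjusted p = 0.00401). Ryk, an atypical Wnt receptor, was higher by 1.43 ± 0.30, and Bcl9l, a β-catenin co-activator, differed by -1.35 ± 0.31. Ryk and Bcl9l lost their calls with slide as a block, Axin2 and Ryk with median scaling, and 3 Wnt genes were lower on leaving out LMPP array 3 or GATA1+LSK array 4.

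Of 39 G protein-coupled receptors, 7 were higher and 10 lower, with a median of −0.40. On leaving out GATA1+LSK array 1, 4 were higher. P2ry1, an ADP receptor of platelets, read 9.36, 9.13, 10.57 and 10.98 in GATA1+LSK cells and 6.03, 6.54, 6.41 and 6.83 in LMPPs, a difference of 3.56 ± 0.63 (adjusted p = 0.000464). Cnr2, the cannabinoid receptor of blood cells, read 8.82, 8.87, 8.78 and 8.99 and 5.99, 5.85, 6.66 and 6.20, with a difference of 2.69 ± 0.32 (adjusted p = 3.19e-06). F2rl2, the protease-activated receptor PAR3 for thrombin, was detected on all GATA1+LSK arrays and no LMPP array, at least 3.25-fold higher (adjusted p = 2.9e-05). For these 3 genes the GATA1+LSK mean was the highest of the 5 populations, with CMPs next at 9.45 ± 0.42, 8.25 ± 0.28 and 5.50 ± 0.49. Among the lower receptors, P2ry14 responds to UDP-glucose and P2ry13 to ADP. P2ry14 was bright in both, at 10.86, 10.73, 10.09 and 10.49 against 13.01, 12.88, 12.85 and 12.61, a difference of -2.29 ± 0.27 (adjusted p = 3e-06). P2ry13 read 4.72, 4.70, 7.49 and 5.87 in GATA1+LSK cells, more variable than the LMPP range of 8.06 to 8.63, and differed by -2.58 ± 0.55 (adjusted p = 0.00314). P2ry13 did not pass without GATA1+LSK arrays 1 and 4 (adjusted p = 0.0649). Tbxa2r, the thromboxane receptor of platelets, was lower as well, at 8.45, 8.27, 8.75 and 8.55 against 10.10, 10.37, 10.58 and 9.74, a difference of -1.69 ± 0.27 (adjusted p = 0.000154). Gpr18, a receptor of lymphoid tissues, was at least 3.75-fold higher in LMPPs (adjusted p = 5.75e-06).

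The G proteins behind such receptors had 4 higher and 2 lower members of 38. Gnaz, the inhibitory α subunit of platelets and neurons, read 8.74, 8.99, 9.78 and 10.23 in GATA1+LSK cells and 5.93, 6.70, 5.68 and 6.71 in LMPPs. The difference was 3.18 ± 0.36 (adjusted p = 1.75e-06). Gna14, an α subunit of the Gq family, was detected on no LMPP array and was at least 3.63-fold higher (adjusted p = 0.000167), with CMPs level at 7.33 ± 0.18 against 6.77 ± 1.07. Rgs8, which speeds the GTPase of inhibitory α subunits, was lower: 5.47, 5.05, 5.26 and 4.84 in GATA1+LSK cells against 8.76, 8.63, 9.02 and 8.44 in LMPPs, with no overlap and a difference of -3.55 ± 0.41 (adjusted p = 2.55e-06).

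RAS-MAPK genes were lower more often than higher, 11 against 3 of 56. Grb10, an imprinted adaptor that restrains insulin receptor signalling, was the member with the widest difference. It read 10.29, 9.99, 8.92 and 8.20 in GATA1+LSK cells and 4.65, 4.73, 5.16 and 5.24 in LMPPs, a difference of 4.41 ± 0.45 (adjusted p = 4.47e-07), and GATA1-LSK cells (9.73 ± 0.33) and LT-HSCs (10.59 ± 0.83) were as high. A second, dim probe of Grb10 differed by 0.36. Dusp3, a phosphatase of ERK and JNK, read 10.31, 10.45, 10.57 and 10.85 against 7.55, 6.94, 7.91 and 7.42, a difference of 3.09 ± 0.19 (adjusted p = 1.38e-10); a second probe near background differed by −0.08. Dusp3 was highest in GATA1+LSK cells, ahead of LT-HSCs at 9.82 ± 0.21. Rasal1, a GTPase-activating protein for RAS, was detected on no GATA1+LSK array and was at least 4.48-fold higher in LMPPs (adjusted p = 1.48e-07). Mapk11, the p38β kinase, differed by -2.01 ± 0.37 (adjusted p = 0.000725), and Dusp5, a nuclear phosphatase of ERK, by -2.73 ± 0.62 (adjusted p = 0.00539, 0.123 with median scaling).

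In the PI3K, AKT and mTOR list, 2 were higher and 6 lower of 46, and 3 were lower on leaving out GATA1+LSK array 4. Arap3, a PIP3-regulated GTPase-activating protein for Arf6 and RhoA, read 10.81, 11.32, 11.13 and 11.54 in GATA1+LSK cells and 8.21, 8.28, 8.12 and 8.28 in LMPPs. Both sets of arrays were tight, and the difference was 2.98 ± 0.21 (adjusted p = 9.98e-10). Plekha1, an adaptor that binds a PI3K lipid product, differed by -1.69 ± 0.30 (adjusted p = 0.00047), and dimmer probes of it by -1.1, -0.53 and -0.12. Pik3ap1, the B cell adaptor BCAP, differed by -2.99 ± 0.72 (adjusted p = 0.00887), with GATA1+LSK arrays at 8.61, 8.05, 5.98 and 4.38, the dim arrays 3 and 4 being the lowest, and its call was lost with median scaling. Of 54 kinases and adaptors of immune receptors, 2 were higher and 3 lower, and none was lower without LMPP array 1 or 3 or GATA1+LSK array 3. Prkca, protein kinase Cα, was higher on every GATA1+LSK array (11.20 to 12.15 against 9.78 to 10.35), by 1.68 ± 0.26 (adjusted p = 0.000119).

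The Toll-like receptor and NF-κB list had 10 lower and 2 higher members of 47 and a median of −0.35, and 6 were lower on leaving out LMPP array 3 or with slide as a block. Sting1, the adaptor that responds to cyclic dinucleotides, read 5.93, 6.15, 4.58 and 4.88 in GATA1+LSK cells, with 2 arrays above background, and 9.45, 9.52, 9.44 and 9.20 in LMPPs. It fell by 4.02 ± 0.29 (adjusted p = 2.16e-09), and the other 3 populations had means between these, from 7.42 in LT-HSCs to 8.59 in CMPs. Tlr7, the endosomal receptor for single-stranded RNA, was detected on no GATA1+LSK array and was at least 5.22-fold higher in LMPPs (adjusted p = 8e-05). Unc93b1, the chaperone that carries endosomal Toll-like receptors to their compartment, read 7.37, 7.44, 7.19 and 7.66 against 9.75, 9.80, 10.18 and 8.98, a difference of -2.26 ± 0.26 (adjusted p = 1.75e-06). Cgas, the enzyme that makes the cyclic dinucleotide bound by STING, was bright in both populations, at 12.81 ± 0.14 and 12.97 ± 0.23, and did not pass (difference -0.16 ± 0.28, adjusted p = 0.824). Irak3, an inhibitory kinase of the pathway, was higher by 1.64 ± 0.25 (adjusted p = 0.00011, 0.257 with median scaling). The other 7 lower members, Ly86, Ticam2, Nfkbie, Tlr2, Traf5, Ly96 and Bcl3, differed by −1.66 to −1.05, and Tnfaip3 was the other higher one. The calls of Nfkbie, Tlr2, Ly96, Bcl3 and Tnfaip3 were lost on leaving out at least 1 array (adjusted p up to 0.131). With slide as a block, those of Ly86, Nfkbie, Tlr2 and Bcl3 were lost. Median scaling removed those of Ticam2, Nfkbie, Tlr2, Traf5, Ly96 and Tnfaip3. Of the markers of macrophages, which use such receptors, 3 of 11 tested passed as lower (C1qb, C1qc and Lgmn). C1qb and C1qc lost their calls with slide as a block, and C1qb also on leaving out at least 1 array (adjusted p up to 0.134). The summed linear level of the macrophage list was 691 to 1080 in GATA1+LSK arrays and 1150 to 1650 in LMPP arrays. Of this list, Adgre1, Fcgr1 and Marco were not detected on the minimum of 4 of the 22 arrays and so were not tested. The part of such cells in these results was not tested.

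**Figure D3:**
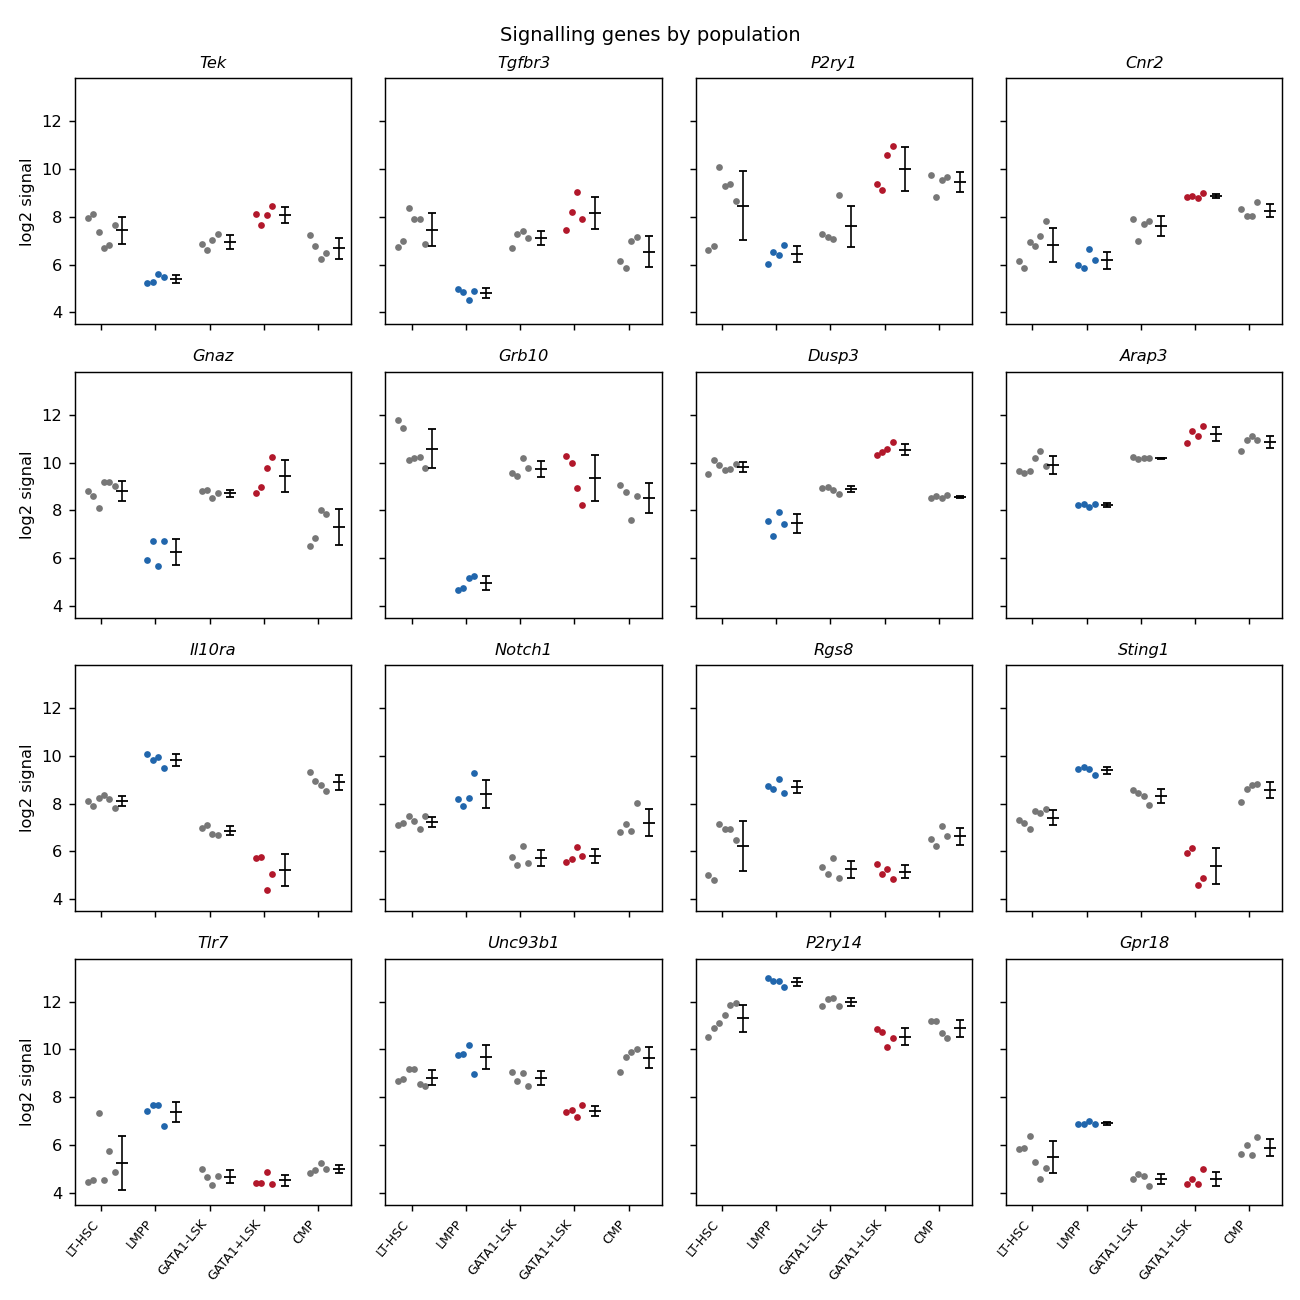
Log2 normalised signal of 16 signalling genes on all 22 arrays, by population; points are arrays (GATA1+LSK red, LMPP blue, others grey) and the bar beside each set is the mean ± SD. Tek, Tgfbr3, P2ry1, Cnr2, Gnaz, Grb10, Dusp3 and Arap3 are higher on all GATA1+LSK arrays than on all LMPP arrays, and the other 8 genes are lower on all of them.

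Surface adhesion molecules and tetraspanins had 18 lower and 9 higher members of 65, with a median difference of −0.20. Esam, an endothelial and stem cell adhesion molecule, read 11.22, 11.23, 11.22 and 11.26 in GATA1+LSK cells and 7.19, 7.20, 7.69 and 7.60 in LMPPs, a difference of 3.82 ± 0.23 (adjusted p = 1.12e-10), with LT-HSCs (11.67 ± 0.41) and GATA1-LSK cells (11.18 ± 0.11) at the GATA1+LSK level. Cd9, a tetraspanin of megakaryocytes and stem cells, read 10.08, 10.67, 10.04 and 9.63 against 6.62, 7.18, 7.13 and 6.74, a difference of 3.19 ± 0.38 (adjusted p = 3.19e-06). Icam4, the Landsteiner-Wiener integrin ligand of erythroid cells, read 11.02, 10.94, 11.60 and 11.35 against 7.60, 7.75, 8.37 and 8.71, a difference of 3.12 ± 0.40 (adjusted p = 8.48e-06). Unlike for Esam, the GATA1+LSK means of Cd9 (10.11) and Icam4 (11.23) were the highest of the 5 populations. Emb (embigin), an immunoglobulin family chaperone of monocarboxylate transporters, read 7.93, 7.47, 7.91 and 7.47 in GATA1+LSK cells and 11.23, 11.01, 10.26 and 11.11 in LMPPs. It fell by 3.21 ± 0.30 (adjusted p = 9.89e-08), with all LMPP arrays higher. Nrp1, the neuropilin co-receptor for semaphorins and VEGF, differed by -2.37 ± 0.37 (adjusted p = 0.000123), and Ly9, a SLAM family receptor, by -2.56 ± 0.55 (adjusted p = 0.0033, lost with slide as a block).

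Integrins and focal adhesion genes had 6 lower and 2 higher members of 37, and 1 was higher without LMPP array 2 or 4 or GATA1+LSK array 4. Cass4, a scaffold of the p130Cas family, read 5.07, 5.32, 4.27 and 7.79 in GATA1+LSK cells and 10.44, 10.35, 10.39 and 9.87 in LMPPs. GATA1+LSK array 4 was far above the other 3 but still below every LMPP array, and the difference was -4.65 ± 0.70 (adjusted p = 6.82e-05). Itgal, the α chain of the leukocyte integrin LFA-1, differed by -2.06 ± 0.40 (adjusted p = 0.00127; call lost with slide as a block). Lpxn (leupaxin), a focal adhesion adaptor of leukocytes, differed by -2.16 ± 0.42 (adjusted p = 0.00119; call lost with median scaling).

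Matrix and protease genes had 9 higher and 8 lower members of 58, the list with the largest share of higher genes in the adhesion class. Bgn (biglycan), a small proteoglycan, read 8.81, 9.45, 9.82 and 9.32 in GATA1+LSK cells and 5.40, 5.25, 5.66 and 4.70 in LMPPs, and Tgm2, the tissue transglutaminase that crosslinks matrix, 11.31, 11.36, 9.93 and 9.98 and 6.73, 6.15, 6.75 and 5.11. The differences were 4.10 ± 0.23 and 4.46 ± 0.49 (adjusted p = 3.19e-11 and 1.12e-06). Both genes were as high in GATA1-LSK cells (9.59 and 10.64) and LT-HSCs (9.77 and 11.35), and low in CMPs (5.39 and 6.72). Ptn (pleiotrophin), a secreted heparin-binding growth factor of the stem cell niche, had another pattern. It read 8.34, 7.92, 7.49 and 7.49 in GATA1+LSK cells and 4.40, 5.29, 4.69 and 4.48 in LMPPs, a difference of 3.09 ± 0.40 (adjusted p = 1.01e-05), with GATA1-LSK cells at 5.78 ± 0.50 and LT-HSCs at 5.39 ± 0.94. Stromal and endothelial markers, which could carry matrix transcripts, summed to 787 to 1190 on the GATA1+LSK arrays and 493 to 668 on the LMPP arrays. These sums include Bgn itself, so they do not show whether the other markers differed. The median difference of the 8 tested markers was -0.21, with 1 higher (Bgn) and 1 lower (Pecam1). The call of Pecam1 was lost with median scaling, with all probes averaged and with slide as a block (adjusted p = 0.174). The part of stromal and endothelial cells in these differences was not tested. The syndecans, membrane proteoglycans, differed in both directions. Sdc2, which no LMPP array detected, was higher by at least 3.29-fold (adjusted p = 2.7e-06). Sdc1 was detected on no GATA1+LSK array and was at least 2.04-fold higher in LMPPs (adjusted p = 0.000147). Sdc4 differed by -1.87 ± 0.27 (adjusted p = 5e-05) and Sdc3 by -1.29 ± 0.33 (adjusted p = 0.0124, 0.0568 without LMPP array 1; lost with median scaling and with slide as a block), and Mmp2, a gelatinase, by -2.06 ± 0.31 (adjusted p = 5.79e-05, lost with median scaling).

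Genes of the cytoskeleton differed as well. Tpm4, a cytoskeletal tropomyosin, read 8.30, 8.71, 6.51 and 7.24 in GATA1+LSK cells and 11.29, 11.18, 10.58 and 9.73 in LMPPs, a difference of -3.00 ± 0.43 (adjusted p = 3.61e-05). Arhgap9, a GTPase-activating protein of blood cells, differed by -1.70 ± 0.23 (adjusted p = 1.77e-05). Myl4, an embryonic and atrial myosin light chain, read 8.28, 8.72, 5.40 and 8.84 against 10.70, 10.53, 11.26 and 11.56, with GATA1+LSK array 3 low, and its call (adjusted p = 0.0111) was lost both without that array (0.058) and with slide as a block (0.093). Rhof, a small GTPase of filopodia, was higher by 1.37 ± 0.23 (adjusted p = 0.000258, lost with median scaling).

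Of 80 genes of the TCA cycle and respiratory chain, 2 were higher and 2 lower (2.5% each), below the shares of all genes, and Atp5b, the β subunit of ATP synthase, read 14.22 ± 0.16 and 14.26 ± 0.09 (difference -0.03 ± 0.14, adjusted p = 0.933). The widest difference of any metabolic gene was that of Cox6a2, the heart and muscle form of a cytochrome c oxidase subunit. Cox6a2 read 4.27, 4.34, 4.33 and 4.35 in GATA1+LSK cells, all at background, and 10.96, 11.07, 11.85 and 11.67 in LMPPs. It was at least 83.7-fold higher in LMPPs (adjusted p = 3.82e-05), while GATA1-LSK cells had 5.39 ± 0.91, CMPs 8.64 ± 0.77 and LT-HSCs 8.56 ± 2.76. The LT-HSC arrays were split by slide. Arrays 1 and 2, on slide 2, read 4.96 and 5.37, and arrays 3 to 6, on slide 3, read 9.07 to 11.25. The cause of this split was not tested. Ppargc1b, a co-activator of mitochondrial genes, differed by -1.77 ± 0.42 (adjusted p = 0.00825), a call lost with median scaling and with slide as a block. In glycolysis and the pentose phosphate pathway, 4 were lower and 1 higher of 40. Hk3, the hexokinase of myeloid cells, read 7.50, 7.97, 7.64 and 8.86 in GATA1+LSK cells and 10.67, 10.55, 10.61 and 9.88 in LMPPs, with no overlap and a difference of -2.43 ± 0.29 (adjusted p = 2.97e-06), and CMPs were highest at 12.11 ± 0.04. Slc2a6, a lysosomal hexose transporter, differed by -1.53 ± 0.37 (adjusted p = 0.0091, lost with slide as a block).

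Lipid genes gave small counts in both directions, 4 higher and 5 lower of 67 for fatty acids and phospholipids and 3 higher and 4 lower of 55 for cholesterol and sphingolipids. Without LMPP array 1, 2 of the fatty acid and phospholipid genes were higher and 2 lower, and without LMPP array 2 or GATA1+LSK array 4, 2 of the sphingolipid and cholesterol genes were lower. The enzymes of sphingosine-1-phosphate, a lipid signal for cell migration, moved in opposite directions. Sphk1, the kinase that makes it, read 8.02, 7.23, 6.54 and 6.75 in GATA1+LSK cells and was at background on every LMPP array, 4.30, 4.61, 4.32 and 4.29; it was at least 4.66-fold higher (adjusted p = 1.52e-05). Sgpl1, the lyase that destroys it, read 5.53, 5.17, 4.97 and 4.67 in GATA1+LSK cells and 7.52, 7.43, 7.41 and 7.32 in LMPPs, a difference of -2.33 ± 0.22 (adjusted p = 1.43e-07). Both genes separated all 4 arrays of each population. Apoe, the apolipoprotein of cholesterol transport, read 11.38, 11.42, 10.70 and 10.61 in GATA1+LSK cells and 7.44, 7.15, 7.33 and 7.84 in LMPPs, a difference of 3.59 ± 0.38 (adjusted p = 6.73e-07). Of the other populations CMPs had 10.33 ± 0.16 and LT-HSCs 9.87 ± 0.80, so LMPPs were the low population. Acacb, the acetyl-CoA carboxylase that restrains mitochondrial fatty acid uptake, was higher by 1.92 ± 0.22 (adjusted p = 2.3e-06), as was Acss2, which makes acetyl-CoA from acetate, by 1.63 ± 0.21 (lost with median scaling). Pld4, a lysosomal enzyme of the phospholipase D family, differed by -1.85 ± 0.34 (adjusted p = 0.000748).

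In nucleotide and one-carbon metabolism 2 were higher and 3 lower of 55, and both higher genes break down pyrimidines. Upp1, uridine phosphorylase, read 8.66, 9.08, 8.77 and 8.05 in GATA1+LSK cells and 4.75, 5.59, 5.48 and 5.17 in LMPPs, a difference of 3.39 ± 0.27 (adjusted p = 9.03e-09), with LT-HSCs higher still at 10.64 ± 0.32. Nt5c3, a pyrimidine nucleotidase of red cell precursors, read 11.49, 10.90, 11.42 and 10.86 against 9.43, 9.66, 9.54 and 9.58 and differed by 1.62 ± 0.22 (adjusted p = 1.52e-05). Impdh1, an enzyme of guanine nucleotide synthesis, was lower by 1.66 on the log2 scale (-1.66 ± 0.29, adjusted p = 0.00047, lost with median scaling). Of 51 genes of amino acid metabolism and transport, 4 were higher and 2 lower, and 2 were higher without LMPP array 1 or 2 or GATA1+LSK array 3. Slc7a8, a neutral amino acid transporter, differed by 1.54 ± 0.35 (adjusted p = 0.0053, 0.0534 without GATA1+LSK arrays 1 and 4), and Asns, asparagine synthetase, by 1.67 ± 0.27 (lost with median scaling).

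Redox and glutathione genes had 7 higher (10.9%) and 6 lower (9.38%) of 64. Gstm2, a glutathione transferase of the mu class, read 9.14, 9.67, 9.43 and 9.28 in GATA1+LSK cells and 4.66, 4.69, 6.43 and 5.46 in LMPPs, where array 3 was above the other arrays. The populations did not overlap and the difference was 4.07 ± 0.35 (adjusted p = 4.23e-08). Aldh1a1, a retinaldehyde dehydrogenase, was detected on no LMPP array and was at least 2.97-fold higher (adjusted p = 2e-07), and Gstt1, a theta class transferase, was higher by 2.22 ± 0.25 (lost with median scaling). Mgst1, a microsomal transferase, went the other way (-2.05 ± 0.29, adjusted p = 3.33e-05, lost with median scaling), as did Ncf4, a cytosolic subunit of the phagocyte NADPH oxidase (-1.79 ± 0.41, adjusted p = 0.00561).

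**Figure D4:**
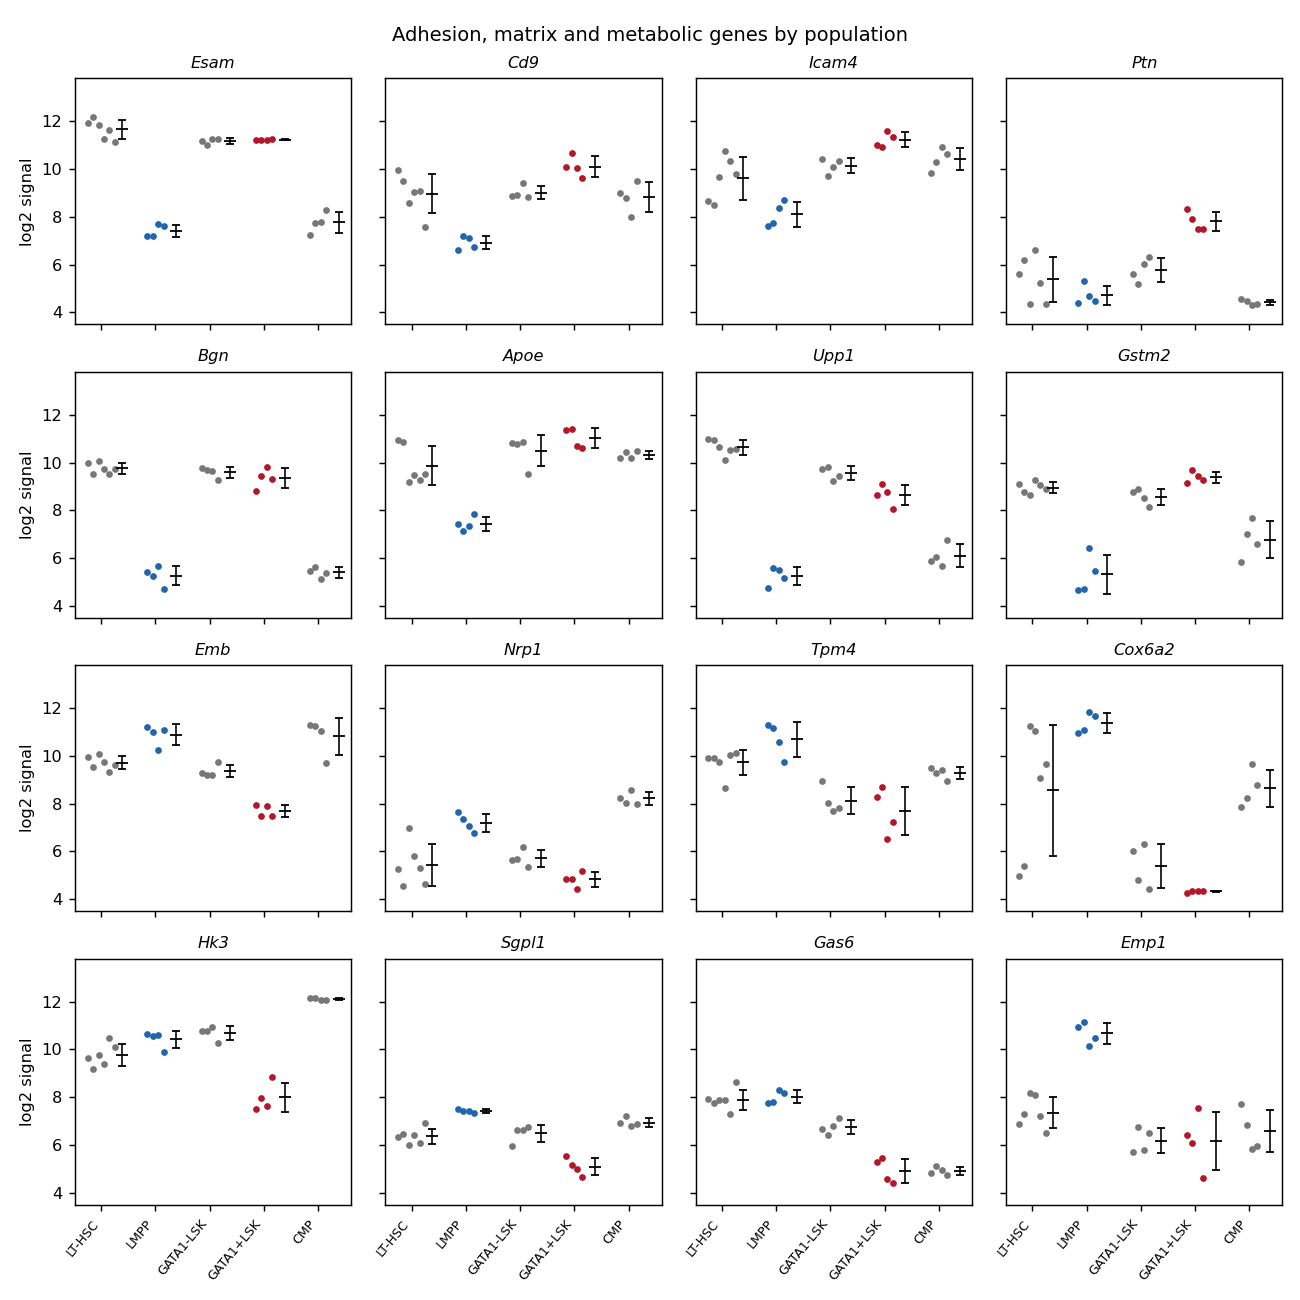
Log2 normalised signal of 16 adhesion, matrix, metabolic and related genes on all 22 arrays, by population; points are arrays (GATA1+LSK red, LMPP blue, others grey) and the bar beside each set is the mean ± SD. Esam, Bgn and Upp1 have means in LT-HSCs at or above those in GATA1+LSK cells, Ptn stands above all other populations in GATA1+LSK cells, and Cox6a2 lies at background on all 4 GATA1+LSK arrays.

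Among transcription factors outside the canonical lineage set, homeobox and stem cell factors had 3 higher and 4 lower members of 56, and 2 were lower without LMPP array 1 or 4 or GATA1+LSK array 3. Sox6, an HMG-box factor of red cell maturation, read 8.32, 8.23, 7.59 and 6.44 in GATA1+LSK cells and was detected on no LMPP array, at least 6.64-fold higher (adjusted p = 2.5e-05). Hoxb5, a homeobox gene of stem cells, read 7.57, 7.87, 7.96 and 7.50 against 5.04, 5.31, 5.55 and 5.98, a difference of 2.25 ± 0.25 (adjusted p = 1.12e-06), with LT-HSCs higher at 9.18 ± 0.31 and CMPs lower at 4.85 ± 0.38. Sox4, an HMG-box factor of B cell progenitors, read 10.45, 10.17, 9.39 and 9.12 against 12.25, 12.61, 11.65 and 11.32 and fell by 2.17 ± 0.37 (adjusted p = 0.000289).

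E proteins, Id proteins, Ikaros factors and other lymphoid regulators had 10 lower members and 1 higher member, Bach1, of 69, and the call of Bach1 was lost without LMPP array 1, 2 or 3 or GATA1+LSK array 3 or 4 (adjusted p up to 0.192). Satb1, a chromatin organiser of lymphoid progenitors, read 7.59, 8.37, 7.72 and 7.41 in GATA1+LSK cells and 11.75, 11.92, 11.87 and 11.80 in LMPPs. It was the widest difference of this list (-4.06 ± 0.25, adjusted p = 1.38e-10), and GATA1+LSK cells had the lowest mean of the 5 populations, followed by GATA1-LSK cells at 9.50 ± 0.16. Pou2f2, the octamer factor Oct-2 of B cells, read 5.03, 5.46, 5.08 and 4.58 against 7.47, 7.48, 7.54 and 6.29, a difference of -2.16 ± 0.31 (adjusted p = 3.3e-05). Id2, an inhibitor of E proteins, for which a second probe near background differed by 0.44, read 8.40, 8.12, 7.85 and 4.32 against 9.83, 10.52, 9.33 and 9.11; GATA1+LSK array 4 was at background, and the call (adjusted p = 0.011) was lost with median scaling, with slide as a block and with the 8 arrays fitted alone.

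Of 61 immediate-early and stress response factors, 2 were higher and 0 lower by limma, and at an unadjusted p under 0.05 there were 6 and 4. Gadd45g, a stress-response regulator of growth arrest, read 10.39, 10.24, 10.78 and 11 in GATA1+LSK cells and 8.75, 8.08, 8.76 and 8.27 in LMPPs, a difference of 2.14 ± 0.32 (adjusted p = 5.91e-05). Ier3, the brightest of the list, read 13.47 ± 0.32 and 13.65 ± 0.28 (adjusted p = 0.729). Of 115 chromatin regulators, 8 were lower (6.96%) and 0 higher by limma, against 17 and 2 at an unadjusted p under 0.05. The count of 8 lower chromatin regulators fell to 5 on leaving out LMPP array 3 or GATA1+LSK array 3 or 4. The share of all genes at an unadjusted p under 0.05 was not counted. The unadjusted counts of both lists therefore have no background beside them. Cbx2, a polycomb subunit, read 6.52, 6.37, 5.75 and 5.83 in GATA1+LSK cells and 7.92, 8.48, 8.47 and 7.33 in LMPPs, a difference of -1.93 ± 0.32 (adjusted p = 0.000201). Parp3, an ADP-ribosyltransferase of DNA repair, read 7.73, 7.65, 4.37 and 4.54 against 8.62, 8.58, 8.58 and 8.96; the 2 dim arrays were at background, and its call was lost with median scaling and with the 8 arrays fitted alone.

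Control of growth and survival was described by 57 genes of G1 and quiescence (5 higher, 2 lower) and 51 of cell death (3 higher, 4 lower). Gas6, the ligand of the TAM receptor kinases, read 5.27, 5.44, 4.57 and 4.41 in GATA1+LSK cells and 7.77, 7.80, 8.31 and 8.17 in LMPPs, with no overlap and a difference of -3.09 ± 0.26 (adjusted p = 2.4e-08). Ndn (necdin), an imprinted growth suppressor, was higher by 1.74 ± 0.37 (adjusted p = 0.00299, lost with median scaling), with LT-HSCs above it at 9.45 ± 0.86. Grb10, described above, belongs to this list as well. Bcl2l11, the BH3-only death gene BIM, read 8.27, 7.95, 7.01 and 6.95 against 9.27, 9.58, 9.47 and 8.98 and differed by -1.78 ± 0.31 (adjusted p = 0.000333), while 2 dimmer probes detected on some or all of these arrays differed by −1.08 and 0.33. Fas, the death receptor, was higher by 1.99 ± 0.52 (adjusted p = 0.0153), but the call was lost without GATA1+LSK array 3 or array 4 (adjusted p up to 0.0722) and with slide as a block, and a second probe near background differed by −0.06. Without LMPP array 2, 2 of the cell death genes were lower.

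Outside the lists and the canonical lineage genes, 9509 genes were tested, of which 288 were higher (3.03%) and 361 lower (3.8%). The widest differences among those that separated all arrays came first in each direction. Csrp3, a muscle LIM protein, read 10.12, 10.42, 11.63 and 11.46 in GATA1+LSK cells and 4.55, 4.77, 4.30 and 4.55 in LMPPs, where no probe of it was detected. It was at least 63.6-fold higher (adjusted p = 7.1e-09), with CMPs at 11.76 ± 0.13 and GATA1-LSK cells at 6.78 ± 0.94. Zg16, a lectin of secretory granules, was at least 11.8-fold higher and Nupr1, a small stress-induced nuclear protein, at least 11.4-fold higher (adjusted p = 4.29e-09 and 2.86e-11). Tcf15, a basic helix-loop-helix factor of mesoderm and quiescent stem cells, read 9.07, 8.90, 10.17 and 9.06 against 4.44, 4.74, 4.67 and 5.77, a difference of 4.40 ± 0.40 (adjusted p = 7.91e-08), with LT-HSCs at 10.29 ± 0.35 and CMPs at 5.93 ± 0.67. Ufsp1, a protease of the ubiquitin-like modifier UFM1, read 9.38, 9.24, 8.93 and 9.80 against 4.85, 5.05, 5.53 and 5.62, a difference of 4.08 ± 0.25 (adjusted p = 1.12e-10), and the means of the other 3 populations did not exceed 7.22. Gdf3, a TGF-β family ligand, was higher by 3.95 ± 0.39 (adjusted p = 2.34e-07) and reached 9.64 to 10.04 in the other 3 populations, which leaves LMPPs (6.52) as the low one.

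The remaining higher genes of this set that were detected in both populations differed by 3.01 to 3.57 on the log2 scale. Cracr2b (a regulator of store-operated calcium entry), Pdzk1ip1 and the imprinted gene Phlda2 were higher still in LT-HSCs, at 10.91 ± 0.24, 11.96 ± 0.17 and 11.04 ± 0.73 against 9.29, 10.90 and 9.97 in GATA1+LSK cells. Ehd3, an endocytic recycling ATPase, and Shank3, a scaffold of synapses, were level with LT-HSCs (8.04 against 7.82 and 8.50 against 8.66). Samd14, a gene whose enhancer is bound by GATA2 in blood progenitors, was higher by 3.46 ± 0.24 and had its highest mean in GATA1+LSK cells. F10, coagulation factor X, was at least 7.13-fold higher, with CMPs at 7.80 ± 0.13. Tuba8, an α-tubulin, and Fhdc1, a formin of microtubules, were at least 6.26-fold and 7.68-fold higher, both detected on no LMPP array.

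Among the lower genes outside the lists, Emp1, an epithelial membrane protein, read 6.42, 6.08, 7.55 and 4.62 in GATA1+LSK cells and 10.92, 11.15, 10.16 and 10.47 in LMPPs. It fell by 4.51 ± 0.51 (adjusted p = 1.57e-06), and the means of the other 3 populations did not exceed 7.36. Sstr2, a somatostatin receptor, read 5.39, 5.08, 4.49 and 6.33 against 10.11, 9.80, 9.70 and 9.59, and Ccl3, an inflammatory chemokine, 4.99, 4.93, 4.54 and 5.18 against 9.52, 9.50, 9.61 and 8.71. Sstr2 differed by -4.48 ± 0.34 and Ccl3 by -4.43 ± 0.41 (adjusted p = 4.26e-09 and 9.89e-08). For Emp1, Sstr2 and Ccl3 the means of the other 3 populations lay nearer to GATA1+LSK cells than to LMPPs. The LT-HSC arrays of Ccl3 were split by slide, as for Cox6a2. Arrays 1 and 2, on slide 2, read 5.9 and 6.0, and arrays 3 to 6, on slide 3, read 7.3 to 7.9. The cause of this split was not tested. Spint1, a protease inhibitor, read 4.54, 4.45, 4.33 and 7.08 in GATA1+LSK cells, with array 4 high, and differed by -4.24 ± 0.55 (adjusted p = 1.17e-05). Arpp21, a calmodulin-linked phosphoprotein of neurons and lymphoid progenitors, read 4.49, 4.75, 4.60 and 4.45 against 8.82, 9.05, 8.42 and 7.44. This probe was detected on no GATA1+LSK array and was at least 10.8-fold higher in LMPPs (adjusted p = 6.88e-07); a second probe, detected on 1 GATA1+LSK array, differed by −2.81. Milr1, an inhibitory receptor of mast cells, read 6.10, 5.22, 5.74 and 5.39 against 9.02, 9.26, 8.77 and 9.41, and Fcgr4, an activating IgG receptor, 6.16, 4.95, 4.69 and 7.75 against 8.73, 9.42, 9.41 and 9.57, with the GATA1+LSK arrays of Fcgr4 more spread than the LMPP arrays. Milr1 differed by -3.50 ± 0.38 and Fcgr4 by -3.40 ± 0.66 (adjusted p = 1.02e-06 and 0.0012). Of the other 8, Gimap7 (a GTPase of lymphocytes), Rpl3l (a muscle ribosomal protein), St6gal1 (a sialyltransferase), Depp1, Cds1 (an enzyme of phosphoinositide supply), Atp1b1 (a sodium pump subunit) and Bcas1, differed by −3.93 to −3.55. Cacna1d, a calcium channel subunit, was detected by its brightest probe on no GATA1+LSK array and was at least 8.58-fold higher in LMPPs by that probe, while a second probe near background differed by 0.19.

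**Figure D5:**
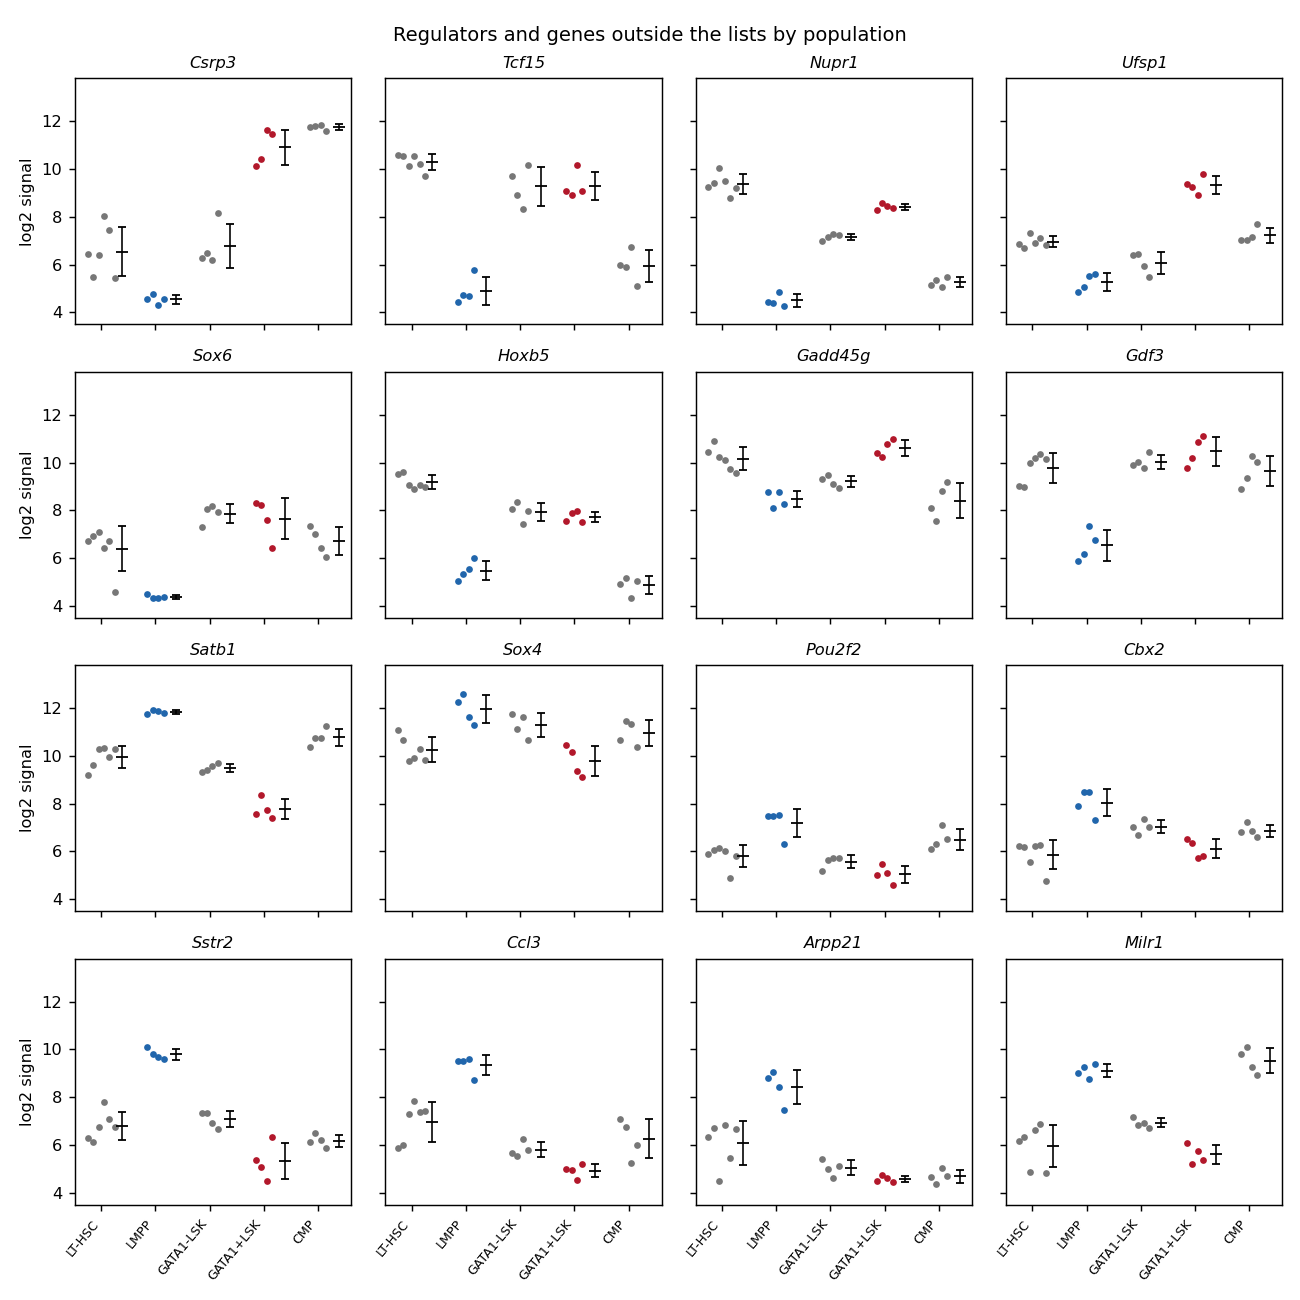
Log2 normalised signal of 16 regulators and genes outside the lists on all 22 arrays, by population; points are arrays (GATA1+LSK red, LMPP blue, others grey) and the bar beside each set is the mean ± SD. Csrp3 and Ufsp1 are high in GATA1+LSK cells with different levels in CMPs, Tcf15, Nupr1 and Hoxb5 are high in LT-HSCs too, and Sstr2, Ccl3 and Arpp21 are higher on every LMPP array than on all other arrays.

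The position of GATA1+LSK cells among the 5 populations was counted for all genes that passed. Of the 413 higher genes, the GATA1+LSK mean was the highest of the 5 in 229 (55.4%, against 17% of all genes tested), the LT-HSC mean in 131 (31.7%, against 22.2%), and the LMPP mean was the lowest in 316 (76.5%, against 16.5%). Both ends together were held in 178 genes, against 600 of all 11118 genes tested. Of the 540 lower genes, the GATA1+LSK mean was the lowest in 379 (70.2%, against 19.9%) and the LMPP mean the highest in 373 (69.1%, against 20.9%), with both in 257 (against 773 of all 11118). Being higher in one of the populations than in the other raises these shares by itself, so they describe the called genes and carry no test.

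Promoters were read for the genes that moved, from RefSeq windows on GRCm38.p6 that run from 250 bases before to 50 bases after each annotated start. A GATA motif (AGATAA or TGATAA, on either strand) was present in 18.9% of the 338 higher genes with a window, 15.2% of the 433 lower genes and 13.4% of the 9014 tested genes with a window; over all 32851 windows of the table the share was 18.6%. CACCC, a KLF motif, was present in 74.6%, 73.7% and 66.6% of the same 3 gene sets, and GGAAGT, an ETS motif, in 23.1%, 30.9% and 31.4%, both on either strand. Genes with more annotated starts had more windows, on average 1.36 for the higher, 1.38 for the lower and 1.27 for all tested genes. Windows of 150 bases before the start are printed below for 3 of the higher genes described above and for Arpp21, chosen because each holds a GATA match, which is in capitals; all are written 5′ to 3′ on the strand of the gene.
Gstm2: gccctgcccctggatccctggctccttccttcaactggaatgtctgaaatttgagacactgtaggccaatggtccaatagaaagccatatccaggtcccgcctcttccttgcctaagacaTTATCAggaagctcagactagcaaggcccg
Fhdc1: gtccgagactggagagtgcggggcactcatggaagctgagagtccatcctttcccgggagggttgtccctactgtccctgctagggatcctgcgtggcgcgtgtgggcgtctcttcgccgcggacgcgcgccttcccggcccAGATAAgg
Icam4: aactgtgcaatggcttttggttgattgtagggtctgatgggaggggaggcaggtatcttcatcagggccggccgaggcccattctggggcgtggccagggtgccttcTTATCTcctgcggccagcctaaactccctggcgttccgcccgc
Arpp21: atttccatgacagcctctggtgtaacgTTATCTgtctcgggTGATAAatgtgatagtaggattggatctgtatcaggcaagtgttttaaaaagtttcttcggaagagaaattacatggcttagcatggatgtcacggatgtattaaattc
The windows lie at chr3:107986421-107986570 (minus strand), chr3:84479492-84479641 (minus), chr9:21029282-21029431 (plus) and chr9:112233723-112233872 (minus), on GRCm38.p6. The match in the Gstm2 window begins 30 bases before the start, that of Icam4 43 bases and that of Fhdc1 8 bases before it. Arpp21, which was lower in GATA1+LSK cells, has 2 matches in this window, so a match was found beside genes of both directions. The number of windows was 9 for Arpp21, 2 for Fhdc1 and 1 each for Gstm2 and Icam4. No other start of these genes had a match in its window.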

How the data were processed

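RNA of sorted bone marrow cells was extracted with Trizol and column clean-up, amplified into biotinylated cRNA and hybridised to Illumina mouse bead arrays, per the labels' protocols. The authors deposited raw probe intensities with a detection p-value per probe and array, and separately a table of normalised intensities, whose columns share 1 distribution. BeadStudio is named in the submitters' processing notes; the background step and the version are not given in the sources used here.

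The deposited raw intensities were background-corrected, quantile-normalised and put on the log2 scale with limma 3.58.1 (neqc, offset 16; R 4.3.3). Of 45281 probes, 34885 had 1 gene symbol in the platform annotation, 18 several and 10378 none, and only those with 1 symbol were named. Probes with a detection p-value under 0.05 on at least 4 of 22 arrays were kept, and the brightest probe of each gene was tested, leaving 11118 genes. A linear model with a mean for each of 5 populations was fitted on all 22 arrays (17 residual degrees of freedom), and the GATA1+LSK minus LMPP contrast was tested with eBayes and Benjamini-Hochberg adjustment at 0.05; ± after a difference is the standard error and ± after a level is the SD. Array number, not counting error, limits the precision. On simulated data of 11118 genes for this contrast, 90 of 100 genes changed by 2 on the log2 scale and 37 of 100 changed by 1 were recovered, with 4 false calls among 131. The simulated arrays were drawn independently around the overall mean of each gene. They held no slide effects, no dim arrays and no differences among the other populations. These rates therefore need not hold for the real arrays.

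The members and the 28 gene lists were chosen with earlier results of these data known; the counts of 1 adhesion list are not reported here, though its genes are in the adhesion totals. Named genes are, for each list, up to 3 called members per direction with arrays that do not overlap and the brightest member that did not pass, the 15 widest differences per direction outside the lists, and the label markers. That gave 195 genes, of which 166 were called and 97 kept their call under every alternative but the 2-fold minimum; the text prefers these 97. Jak3, Tgif1, Tbxa2r, Sdc2, Sdc3, Hba-a1, the other Toll-like receptor genes and the macrophage and stromal markers were named after their values were seen, as were the 4 printed promoters. Replicate numbers were not shown to pair the arrays. Correlations of deviations between same-numbered arrays were 0.417, 0.267, 0.02 and 0.352, and those between differently numbered arrays ran from -0.456 to 0.503. Slide numbers come from the array labels, slide 4 alone holding both populations.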

Additional observations from a re-analysis of the deposited data

Results flagged for a closer look

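Among the genes described individually above, 268 sets of 4 arrays (each gene in each population) were examined for 1 array far from the other 3, and 16 stood out, where chance gives about 1 in 20, or 13. In the GATA1+LSK group there were 7, all of arrays 3 and 4, and in the LMPP group 9, of which 7 were array 4.

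In GATA1+LSK cells, Igf2r read 6.29 on array 4 against 7.31 to 7.39 on the others, Id2 4.32 on array 4 against 7.85 to 8.40, Myl4 5.40 on array 3 against 8.28 to 8.84 and Impdh1 6.36 on array 3 against 7.19 to 7.34. Tcf15 was high on array 3 (10.17 against 8.90 to 9.07), Spint1 was high on array 4 (7.08 against 4.33 to 4.54), and Tlr7 read 4.87 on array 3 against 4.38 to 4.42.

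In LMPPs, array 4 was low for Cass4 (9.87 against 10.35 to 10.44), Mmp2 (9.39 against 9.99 to 10.02), Hk3 (9.88 against 10.55 to 10.67), Pou2f2 (6.29 against 7.47 to 7.54), Sdc3 (7.01 against 8.29 to 8.53) and Ccl3 (8.71 against 9.50 to 9.61), and high for Parp3 (8.96 against 8.58 to 8.62). Sphk1 on array 2 (4.61) and Sox6 on array 1 (4.50) stood above the other LMPP arrays, which lay between 4.29 and 4.35. Sdc3 was the only one of the 16 in which GATA1+LSK and LMPP arrays overlapped.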

How the results depend on the processing

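The 953 calls were 744 to 972 on leaving out 1 array (316 to 405 higher, 424 to 567 lower). With median scaling they fell to 447 (170 higher, 277 lower), with array weights they rose to 2120 (1001 higher, 1119 lower), and a test against a 2-fold minimum gave 185 (99 higher, 86 lower). Without GATA1+LSK arrays 1 and 4, an alternative chosen after seeing the data, 340 genes were lower. The causes were not tested, apart from the 2-fold test, which asks for more by construction. The other settings, which were cyclic loess, no background correction, the authors' values, no or a stricter detection filter, all probes averaged, slide as a fixed or random block, the 8 arrays alone and trended variance, gave 758 to 990. A replicate block by array number gave 1339 (595 higher, 744 lower); GATA1+LSK array 1 correlated best with LMPP array 2 (0.503), so the numbers are not shown to pair the arrays. Of the 166 named calls, 55 were lost with median scaling, 36 with slide as a block, 39 without the arrays with raised Hba-a1 and 32 on leaving out at least 1 array, and all 166 kept their direction on slide 4. Of the other list members called lower, 3 had a difference of 0 or above on slide 4 alone, 1 array of each population: Coro2a (0), Sdc3 (0.07) and Itpkb (0.23). Low signal limits the 83 higher and 52 lower genes detected in 1 population alone, whose differences are bounds.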
